A study of Mus musculus with 113 samples.

Results

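The genes described here are the ligands, secretion factors, receptors, secreted inhibitors, scaffolds and DNA-binding factors of the Wnt pathway, listed by symbol and not by measured values: the Wnt, Fzd, Sfrp and Dkk families together with Lrp5, Lrp6, Lef1, Tcf7, Tcf7l1, Tcf7l2, Axin1, Axin2, Porcn, Wls, Rspo1, Rspo2, Rspo3, Lgr4, Lgr5, Znrf3 and Rnf43. There were 54 such genes among 23107 genes of the E14 samples, 45 among 13738 of the adherent monoculture, 43 among 13541 of the SFEB cell populations and 34 among 11449 of the single cells. RNA-seq followed mouse ES cells into the neural lineage. R1 mESCs were differentiated in SFEB culture, in which aggregates form in suspension without serum, and sampled as cell populations in a first series of 14 time points from 0 to 142 h and a parallel series of 8 time points from 0 to 216 h, with 8 single cells at each of the parallel time points. R1 mESCs were also differentiated as an adherent monoculture in N2B27 medium and sampled at 15 time points from 0 to 216 h. Unedited E14 mESCs (WT) and 1 clone of E14 mESCs with a CRISPR deletion over the start codon of Fyn (KO) were each measured at days 0 and 4 in 3 libraries. In both protocols cells were replated on day 6.

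Wnt proteins are lipid-modified by Porcn, carried to the cell surface by Wls and bound there by a Frizzled receptor with Lrp5 or Lrp6. Binding disables the complex that Axin builds to degrade beta-catenin, and beta-catenin then enters the nucleus and acts through the TCF/LEF factors, among which Tcf7l1 is known mainly as a repressor of target genes in ES cells. Sfrp and most Dkk proteins hold the signal back outside the cell, R-spondins strengthen it through Lgr receptors by sparing Frizzled receptors from Znrf3 and Rnf43, and Axin2 is itself a target that feeds back on the pathway. In embryos Wnt signals help to form the primitive streak and later pattern the neural tube along its length.

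The targeted gene was lower in the KO libraries, by 1.29 on the log2(FPKM + 1) scale at day 0 (limma adjusted p = 0.0601) and by 1.74 at day 4 (adjusted p = 0.0193). Fyn measured 3.21, 2.74 and 4.003 FPKM (a level per transcript length and library size) at day 0 and 9.44, 4.54 and 6.76 FPKM at day 4 in WT. In KO it measured 0.598, 0.598 and 1.1 FPKM at day 0 and 1.19, 1.13 and 1.58 at day 4. Replicates are separate libraries of 1 group, and nothing in the labels says that they came from separate cultures, so that p-values measure the spread between libraries. A pair of E14 libraries stood apart from the others of their group. WT day 4 replicate 1 held 47.2 FPKM of Sox1, an early neural marker, against 7.81 and 11.6, and KO day 0 replicate 3 held 0.0715 FPKM of the primitive streak gene T against 16.05 and 9.45. That KO library also held 12.4 FPKM of the primed epiblast gene Otx2 against 0.397 and 0.395, 49.7 of Dnmt3b against 15.1 and 15.3, and 47.5 of the naive gene Tfcp2l1 against 251 and 265. Other naive genes went both ways there. Zfp42 (351 against 221 and 221) and Nr0b1 (87.3 against 45.97 and 62.6) were higher, and Klf4, Esrrb and Nanog were lower. In WT at day 0 Otx2 measured 1.02, 8.57 and 8.997 FPKM. WT day 4 replicates 2 and 3 summed to 22.7 and 32.7 FPKM over 5 endoderm markers, and the other 10 libraries to between 0.491 and 6.405. At 0 h, 10 fibroblast markers summed to 815 FPKM in the first and 842 in the parallel SFEB series and to 358 in the adherent culture, although feeders had been removed by a feeder-free passage, and to at most 13.02 FPKM in any E14 library. The neural label was checked in SFEB, where 5 naive pluripotency markers summed to 642 FPKM at 0 h and 29.9 at 142 h and the neural progenitor markers in the table to 145 and 759. Sox2 alone gave 117 FPKM of the latter sum at 0 h and 89.5 at 142 h. The number of genes above 0.5 FPKM was 12279 to 12917 in the SFEB populations, 12044 to 12992 in the adherent culture and 11684 to 12733 in E14.

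Over the SFEB time course the Wnt genes changed in several ways, grouped here by reading their levels. Wnt8a, Lef1 and Tcf7 were high in mid-course, and Fzd5 declined from the first hours. Wnt7b, Wls, Fzd3, Fzd1, Sfrp1, Sfrp2 and Tcf7l2 were higher late. Others, among them Wnt5a, Porcn, Tcf7l1 and Axin1, followed none of these courses. SFEB levels are FPKM that the authors had adjusted for batch. Of the 43 genes in the table, 38 exceeded 0.5 FPKM in at least 8 of the 22 samples and were tested. A linear trend with hours rose for 18 and fell for 3 of them (limma, Benjamini-Hochberg adjusted p under 0.05), where 62.2% of all 13115 genes tested were called, 35.1% rising and 27.1% falling. The median slope of the Wnt genes was 0.09 log2 units per 24 h on the log2(FPKM + 1) scale, used for every slope and change in bulk samples given here, against 0.01 for all genes tested. A spline fit, which also finds genes that rise and fall again, called 37 of 38, where 87.6% of all genes were called. In the adherent monoculture 36 of 45 were tested. There 22 rose and 4 fell, with 59.4% of all genes called (35.8% rising and 23.7% falling), and the spline called 33 of 36 with 70.3% of all genes. Each time point is 1 library, so the spread in these tests is that around the fitted line. In such bulk samples fewer cells of a type and less RNA per cell cannot be told apart.

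**Figure D1:**
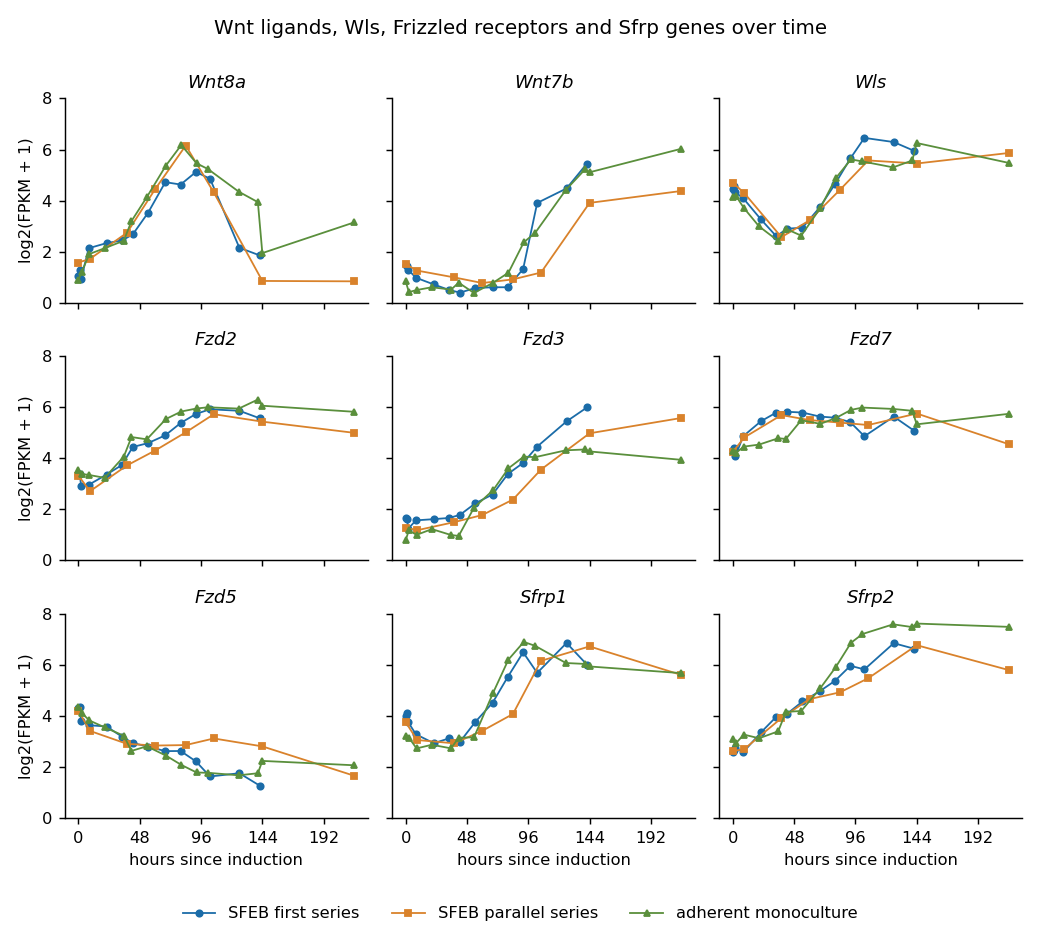
Levels of 9 genes as log2(FPKM + 1) against hours since induction in the first SFEB series (circles), the parallel SFEB series (squares) and the adherent monoculture (triangles), with 1 library per point. Wnt8a is highest between 80.5 and 92 h in all 3 courses, Wnt7b is low up to 80.5 h and high at the end, Fzd3 and Sfrp2 are higher at the last time point than at the first, and Fzd5 is lower.

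Among the ligands, Wnt8a, which signals through beta-catenin and is best known from the primitive streak, was high in mid-course. In the first SFEB series it measured 1.08 FPKM at 0 h, 5.41 at 42.5 h, 25.4 at 68 h, 33.8 at 92 h and 2.63 at 142 h. The parallel series gave 1.99 FPKM at 0 h, 70.4 at 84 h and 0.795 at 216 h, and the adherent culture 0.865, 71.3 at 80.5 h and 7.89 at 216 h. All 3 courses thus peaked within 80.5 to 92 h, and the spline passed in SFEB (adjusted p = 2.18e-05) and adherent culture (adjusted p = 0.000601, both limma). Primitive streak and mesoderm markers were measured beside it, and 3 of 5 were in the table. They summed to 25.1 FPKM at 84 h and 35.8 at 106 h of the parallel series, but to 5.19 at 68 h and 6.61 at 92 h of the first series, where Wnt8a was already high. T, the defining marker, was 12.7 FPKM at 84 h of the parallel series and 2.86 at 68 h of the first. At 0 h it was already 2.47 FPKM in the first series and 0.857 in the parallel one. Low levels of T, and sums that include them, thus cannot be compared between the series. The part of such cells in the Wnt8a levels was not tested. In the single cells Wnt8a exceeded 0.5 RPKM (the same kind of unit, counted in reads) in 2 of 8 cells at 60 h, 7 of 8 cells at 84 h (exact 95% interval 47.3 to 99.7%, counting error only), 2 of 8 cells at 106 h and 0 of 8 cells at 144 and 216 h. The lowest, median and highest cell at 84 h held 0.173, 7.92 and 430.1 RPKM, a wide spread between cells of 1 culture.

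Wnt7b, a ligand of the developing forebrain and cortex, was high late. Its level stayed between 0.322 and 1.76 FPKM up to 92 h of the first series, then measured 14.1 FPKM at 103 h, 21.3 at 126 h and 42.9 at 142 h. The parallel series was still at 1.28 FPKM at 106 h, close to the hour of the 103 h sample, and measured 14.1 at 144 h. It ended at 19.8 FPKM and the adherent culture at 64.5. The slope was 0.47 ± 0.10 (SE) log2 units per 24 h in SFEB (limma adjusted p = 0.000206) and 0.74 ± 0.07 in adherent culture (adjusted p = 6.8e-07). No cell exceeded 0.5 RPKM of Wnt7b up to 84 h, while 3 of 8 cells at 106 h, 8 of 8 cells at 144 h (exact 95% interval 63.1 to 100%) and 5 of 8 cells at 216 h did. A count of 0 of 8 cells allows a share of cells above 0.5 RPKM of up to 37.5% (3 counts of 8). This covers counting error only and sets no limit on cells whose RNA was missed. Wnt7b thus exceeded 0.5 RPKM in every cell measured at 144 h and in none measured at 84 h, when the matched population held 0.894 FPKM. A cell below 0.5 RPKM need not lack the RNA. At 38 h Fzd7 measured 50.5 FPKM in the population and as little as 0.009 RPKM in a cell.

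Wnt1, a signal of the midbrain-hindbrain boundary and dorsal neural tube, measured at most 0.325 FPKM up to 80 h of the first series and 12.8, 10.6 and 5.26 FPKM at 103, 126 and 142 h. In the parallel series Wnt1 was highest at 216 h, at 11.1 FPKM. It exceeded 0.5 FPKM in too few samples for the SFEB test and is not in the single-cell table. Wnt5a, which signals mainly without beta-catenin, was high at both ends, with 7.07 FPKM at 0 h, 0.347 at 68 h and 12.7 at 142 h. The other 15 ligands held 6 in the SFEB table, with highest levels that ran from 2.94 FPKM for Wnt4 to 10.1 for Wnt7a, and 9 in the adherent table, where only Wnt7a reached 5 FPKM, with 13.9 FPKM at 140.5 h. Wnt7a rose in the adherent culture, with a slope of 0.55 ± 0.06 (SE) log2 units per 24 h (adjusted p = 8.29e-07, limma). At 142 h of the first series 5 ligands were at 5 FPKM or more together, namely Wnt7b, Wnt5a, Wnt7a, Wnt8b and Wnt1. The other courses did not repeat this. At 144 h Wnt5a and Wnt8b measured 3.64 and 2.61 FPKM in the parallel series and 3.45 and 2.89 in the adherent culture.

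Both genes of ligand secretion dipped, Wls first and Porcn later. Wls, the cargo receptor that carries Wnt proteins to the surface, fell from 21.2 FPKM at 0 h to 5.09 at 34 h of the first series and then climbed to 86.9 at 103 h. Its adherent course had the same shape, with 16.5 FPKM at 0 h, 4.37 at 35.5 h and 75.4 at 144 h. The early fall ran over samples in which the sum of 10 fibroblast markers also fell, from 815 FPKM at 0 h to 55.4 at 34 h of the first series, and in E14 at day 0, where that sum was at most 7.75 FPKM, Wls measured 3.55, 7.22 and 6.23 FPKM in WT and 3.03, 3.09 and 0.314 in KO. The part of such cells in the early Wls levels was not tested. The linear trend over the whole course rose in SFEB (slope 0.32 ± 0.09 log2 units per 24 h, limma adjusted p = 0.00245), although the parallel series alone gave 0.25 (adjusted p = 0.0626). Wls exceeded 0.5 RPKM in 1 of 8 cells at 0 h, 0 of 8 cells at 38 h, 7 of 8 cells at 144 h and 4 of 8 cells at 216 h. Porcn, the enzyme that puts the lipid on Wnt proteins, was highest early, at 26.4 FPKM at 8 h, and measured 4.01 FPKM at 42.5 h and 9.902 at 142 h. The parallel series gave 16.5 FPKM at 0 h, 21.4 at 9 h, 4.45 at 60 h and 16.5 at 216 h, so that Porcn ended there at its 0 h level, and its linear trend in SFEB missed the threshold (adjusted p = 0.253). In the adherent culture Porcn fell (slope -0.17 ± 0.05, adjusted p = 0.00769), from 36.2 FPKM at 20.5 h to 7.74 at 92.5 h, later than in SFEB, where it was already low at 42.5 h.

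Among the Frizzled receptors, Fzd5 declined, Fzd3 and Fzd2 rose and Fzd7 was among the most abundant at both ends of the course. Of the 10 Frizzled genes, 5 rose and 1 fell in SFEB, where 62.2% of all genes were called, and 9 rose and 1 fell in adherent culture, where 59.4% were. The falling gene was Fzd5 in both. Fzd5, a receptor of the eye field and early embryo, was with Fzd7 the most abundant Frizzled at 0 h. It measured 18.5 and 17.2 FPKM in the 2 samples of 0 h, 6.63 FPKM at 42.5 h and 1.402 at 142 h, a slope of -0.32 ± 0.04 (SE) log2 units per 24 h (limma adjusted p = 2.98e-07). Fzd7, a receptor that ES cells and epiblast use, climbed within the first 34 h of the first series, from 19.1 to 54.2 FPKM, and stayed between 28.02 and 55.4 FPKM in that series afterwards. At 216 h of the parallel series it was at 22.4 FPKM. Its linear trend missed the threshold in SFEB (adjusted p = 0.232), while the spline passed (adjusted p = 3.95e-07). Without the samples up to 9 h Fzd7 was called as falling. In adherent culture Fzd7 rose (slope 0.20 ± 0.04, adjusted p = 0.000256) and Fzd5 fell (slope -0.29 ± 0.05, adjusted p = 0.000214).

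The promoters of Fzd7 and Fzd5 are shown because these receptors moved in opposite directions in adherent culture and at day 4 of the E14 cells. Each run is the 250 bases before the gene's start from RefSeq (GRCm38.p6, chr1:59481897-59482146 on the plus strand for Fzd7 and chr1:64737751-64738000 on the minus strand for Fzd5), written 5′ to 3′, and capitals mark a match to the 7-base TCF/LEF word CTTTGAT, to its variant ending in AA (CTTTGAA) or to its variant ending in TT (CTTTGTT) on either strand.
Fzd7: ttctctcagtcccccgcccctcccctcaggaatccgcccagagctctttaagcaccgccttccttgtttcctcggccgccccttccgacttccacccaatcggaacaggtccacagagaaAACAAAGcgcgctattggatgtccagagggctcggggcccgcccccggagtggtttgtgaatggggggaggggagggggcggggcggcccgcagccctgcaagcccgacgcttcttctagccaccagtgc
Fzd5: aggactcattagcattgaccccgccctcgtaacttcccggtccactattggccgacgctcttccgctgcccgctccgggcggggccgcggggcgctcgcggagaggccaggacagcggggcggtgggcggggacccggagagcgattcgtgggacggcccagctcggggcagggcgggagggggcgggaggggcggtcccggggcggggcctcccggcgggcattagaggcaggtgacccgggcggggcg
The Fzd7 window holds 1 match, to CTTTGTT read on the opposite strand, and the Fzd5 window holds none. Of the 54 genes, 34 had a promoter in the table. Of their 43 windows, 5 held at least 1 match (11.6%), and of all 32851 windows of this length 12.04% did. A match is a description of letters, not a measured binding site.

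Fzd3, a receptor of axon guidance and planar polarity, gained the most of the Frizzled genes. It measured 2.2 FPKM at 0 h, 9.43 at 80 h, 42.4 at 126 h and 62.4 at 142 h of the first series, and 46.7 at 216 h of the parallel series. The slope was 0.64 ± 0.05 log2 units per 24 h in SFEB (limma adjusted p = 2.83e-10) and 0.50 ± 0.07 in adherent culture, where Fzd3 levelled off at 19.3 FPKM at 140.5 h and 14.3 at 216 h. No cell up to 84 h exceeded 0.5 RPKM of Fzd3, and 2 of 8 cells at 106 h, 5 of 8 cells at 144 h and 7 of 8 cells at 216 h did. In bulk Fzd2 rose earlier and more smoothly, from 9.12 FPKM at 0 h through 20.7 at 42.5 h to 59.3 at 103 h. It exceeded 0.5 RPKM in 0 of 8 cells at 9 h and 6 of 8 cells at 38 h, but the single cells rose less evenly. The highest cell already held 0.679 RPKM at 0 h, and cells at 60 h ran from 0.0482 to 102.8 RPKM. Fzd10 measured 6.07 FPKM at 0 h and 37.6 at 142 h of the first series, but 18 at 84 h and 2.84 at 216 h of the parallel one. The slope of Fzd10 was 0.21 ± 0.07 (adjusted p = 0.0133), and the parallel series alone gave a slope of 0.04 (adjusted p = 0.776). Fzd6 measured 1.63 FPKM at 0 h, 7.21 at 92 h and 3.02 at 142 h. The other 4 Frizzled genes had highest levels from 2.17 FPKM for Fzd4 to 14.4 for Fzd1.

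Of the co-receptors and the R-spondin axis, Lgr4 gained early, Rspo2 and Rspo3 were highest late, and Lrp6 and Znrf3 stayed within a narrow range. Lrp6 rose, with a slope of 0.08 ± 0.02 log2 units per 24 h (adjusted p = 0.00118, limma), from 14.95 FPKM at 0 h to 19.2 at 142 h. Lrp5 ran between 8.47 and 22.9 FPKM over the 22 samples with a linear trend that missed the threshold (adjusted p = 0.846). Lgr4, the R-spondin receptor of this set with the highest level, measured 18.3 FPKM at 0 h, 36 at 22 h and 49.4 at 80 h. Its slope in SFEB was 0.10 ± 0.04 (adjusted p = 0.0357), and it turned to -0.030 (adjusted p = 0.512) without the samples up to 9 h. It also missed the threshold without the parallel 0 h sample alone (adjusted p = 0.0994), as did Dkk3, described further on (adjusted p = 0.0784). At 103 h of the first series Lgr4 was at 18.1 FPKM, while the samples before and after it, at 92 and 126 h, held 48.5 and 41.2. The same sample held the highest Lef1 after 54.5 h in that series (13.3 FPKM) and the series' highest Axin2 (16.95 FPKM). Its primitive streak and mesoderm markers summed to 20.6 FPKM, against 6.61 at 92 h and 7.16 at 126 h, and their part in these levels was not tested. Znrf3, a ligase that removes Frizzled receptors, stayed between 3.02 and 5.29 FPKM. Rspo2 and Rspo3 were low in mid-course, at 0.0782 and 0.238 FPKM at 54.5 h, and measured 7.88 and 7.28 FPKM at 142 h. In the parallel series they measured 0.806 and 3.17 FPKM at 144 h, and Rspo3 was highest at 106 h (4.59 FPKM). The adherent culture gave 4.51 and 5.25 FPKM at 144 h but 0.192 and 0.335 at 140.5 h and 0.587 and 0.713 at 216 h. Of the other 3 genes of the axis, Rspo1 and Lgr5 had highest levels of 4.53 and 2.004 FPKM, and Rnf43 was in the E14 table alone.

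Sfrp1 and Sfrp2, which bind Wnt proteins outside the cell and are markers of neural progenitors, rose to the highest levels of all the genes described. Sfrp2 measured 4.95 FPKM at 0 h, 22.6 at 54.5 h and 114 at 126 h of the first series, and 7.603, 17.2 and 194 FPKM at 0, 53.5 and 144 h of the adherent culture. The slopes were 0.57 ± 0.06 and 0.68 ± 0.07 log2 units per 24 h (adjusted p = 1.52e-08 and 1.38e-06, limma). Sfrp1 dipped first, from 14.8 FPKM at 0 h to 6.599 at 22 h, and then reached 114 at 126 h. At 144 h all 8 cells held Sfrp2, with 22.1, 214 and 1903 RPKM in the lowest, median and highest cell, and at 216 h 5 of 8 cells exceeded 0.5 RPKM. Sfrp4 fell, from 6.45 FPKM at 0 h to 0.7402 at 126 h (slope -0.20 ± 0.04, adjusted p = 7.87e-05), and by 0.13 per 24 h within the parallel series alone (adjusted p = 0.0509).

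Dkk3 and Dkk2 were highest in the first hours, together with the fibroblast markers. Dkk3 measured 14.7 and 15.3 FPKM in the first and parallel 0 h samples, 6.497 at 8 h, 1.56 at 22 h and 0.358 at 42.5 h. Dkk2 measured 5.33 and 4.61 FPKM at 0 h and 0.498 at 8 h. The sum of the 10 fibroblast markers, all of them in the table, fell over the same samples, from 815 FPKM at 0 h to 353 at 8 h, 126 at 22 h and 32.5 at 42.5 h. In the E14 day 0 libraries, where those markers summed to at most 7.75 FPKM, Dkk2 was listed at 0 in all 6 and Wnt5a at no more than 0.109 FPKM. Dkk3 was present there, at 1.32, 1.14 and 1.35 FPKM in WT and 5.498, 4.65 and 0.627 in KO. Among the 0 h single cells, 2 of 8 held Dkk2, at 25.4 and 12.5 RPKM. What part other cells had in these early levels was not tested. The falling Dkk3 trend (slope -0.26 ± 0.09, adjusted p = 0.0235, limma) turned to a rise of 0.12 log2 units per 24 h (adjusted p = 0.00671) without the samples up to 9 h. Of the other 3 inhibitors, Dkk1 and Sfrp5 had highest SFEB levels of 5.53 and 2.25 FPKM, and Dkk4 was in the E14 table alone.

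**Figure D2:**
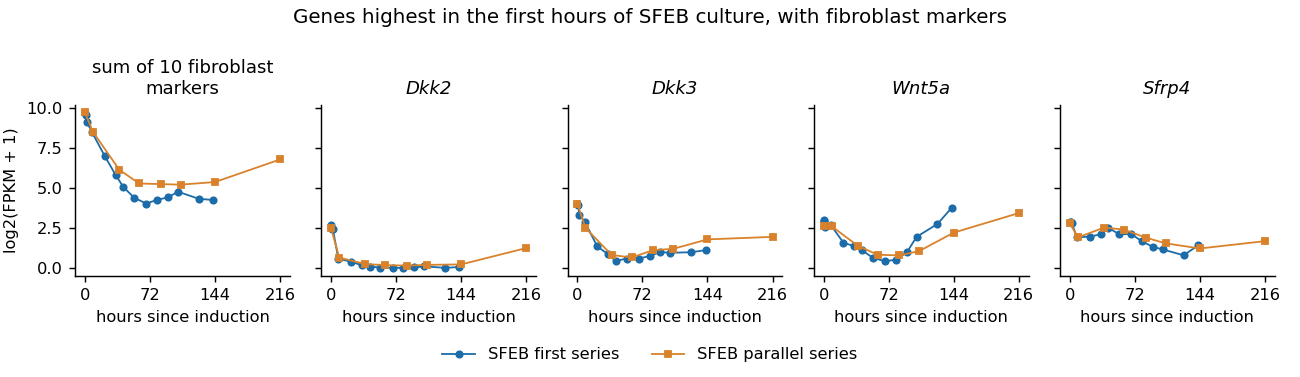
The summed level of 10 fibroblast markers and the levels of Dkk2, Dkk3, Wnt5a and Sfrp4 as log2(FPKM + 1) against hours since induction in the 2 SFEB series, with 1 library per point. The marker sum, Dkk2 and Dkk3 are highest in the first hours and drop within the first 42.5 h, while Wnt5a is high again at 142 and 216 h.

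The scaffolds and the TCF/LEF factors, which read the signal out, followed courses of their own. Axin1 was nearly level, at 15.8 to 25.03 FPKM over the 22 SFEB samples, and was the 1 gene tested that the SFEB spline did not call (adjusted p = 0.063, limma). Axin2, the feedback target, rose from 3.55 FPKM at 0 h through 5.77 at 92 h to 12.2 at 142 h of the first series (slope 0.21 ± 0.04, adjusted p = 0.000173), and in the adherent culture from 2.11 to 9.08 FPKM (slope 0.22 ± 0.04, adjusted p = 5.72e-05). Within the parallel series alone its slope was 0.16 (adjusted p = 0.0515).

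Tcf7 and Lef1 rose and fell. Tcf7 measured 21.1 FPKM at 0 h, 51.3 at 42.5 h and 10.9 at 142 h of the first series, with 48.4 at 60 h and 7.31 at 216 h of the parallel one. Lef1 measured 2.26, 19.5 and 5.57 FPKM at 0, 42.5 and 142 h, and 1.97, 21.2 and 2.99 FPKM at 0, 53.5 and 216 h of the adherent culture. In the bulk courses both peaked at an earlier hour than Wnt8a, and both passed the SFEB spline (adjusted p = 2.53e-09 for Tcf7 and 3.6e-09 for Lef1, limma) while their linear trends missed the threshold. Tcf7l1, the repressor, gained early, from 13.9 FPKM at 0 h to 36.6 at 8 h of the first series, but was already at 44.3 FPKM at 0 h of the adherent culture, where it fell (slope -0.08 ± 0.02, adjusted p = 0.00095). Tcf7l2 came last, from 2.81 FPKM at 68 h to 7.24 at 142 h (slope 0.20 ± 0.03 over the whole SFEB course, adjusted p = 1.69e-06). Without the samples up to 9 h, Tcf7, Tcf7l1 and Lef1 were all called as falling.

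**Figure D3:**
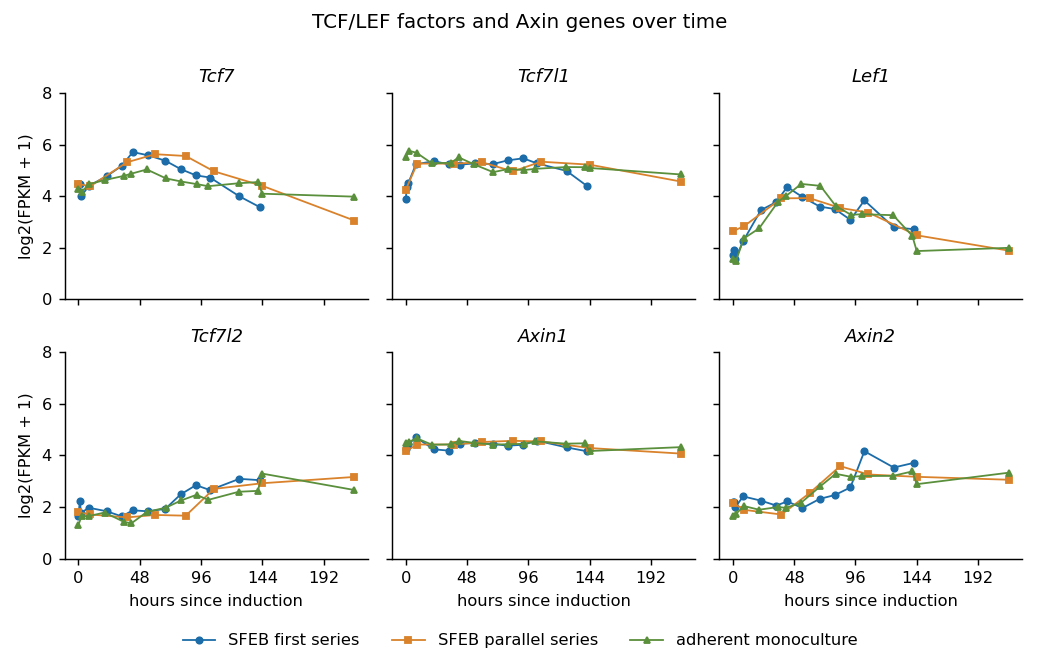
Levels of the 4 TCF/LEF factors and of both Axin genes as log2(FPKM + 1) against hours since induction, with 1 library per point and the 3 courses marked by circles, squares and triangles. Tcf7 and Lef1 peak at 42.5 h in the first and at 60 h in the parallel SFEB series, Tcf7l2 and Axin2 are higher from 92 h on than at 0 h, and Axin1 is nearly level.

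In the single cells Tcf7 was found in fewer cells late, and Tcf7l2 was in most cells at 216 h. The median cell held 29.2 RPKM of Tcf7 at 60 h and 64.7 at 84 h, its highest median, at the hour when Wnt8a appeared in most cells. Tcf7 exceeded 0.5 RPKM in 8 of 8 cells at each of 0, 9, 38, 60 and 84 h (exact 95% interval 63.1 to 100% of cells each), then in 6 of 8 cells at 106 h, 4 of 8 cells at 144 h and 1 of 8 cells at 216 h. Tcf7l1 exceeded 0.5 RPKM in at least 6 of 8 cells at every time point, but its median was 11.4 RPKM at 144 h and 0.808 at 216 h. Up to 84 h every cell with Tcf7l1 also held Tcf7, while 2, 4 and 5 cells held Tcf7l1 without Tcf7 at 106, 144 and 216 h. Tcf7l2 exceeded 0.5 RPKM in 3 of 8 cells at 0 h, in 0 of 8 cells from 60 to 144 h and in 7 of 8 cells at 216 h, at 0.02804, 3.81 and 61.6 RPKM in the lowest, median and highest cell. At 144 h the highest cell was just under that cut, at 0.441 RPKM. The matched populations already held 5.52 FPKM of Tcf7l2 at 106 h and 6.59 at 144 h, against 7.99 at 216 h. Lef1 never exceeded 0.5 RPKM in more than 4 of 8 cells. The 1 cell with Tcf7 at 216 h, cell 16, held 27.9 RPKM and was the 1 cell of that time point at 0 for Fzd3.

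Cells of 1 time point share a culture, so that the test across time used the mean of the 8 cells. Of the 34 Wnt genes in the single-cell table, 2 had a linear trend, where 2.73% of all 11449 genes did, 1.67% rising. Fzd3 rose by 0.12 ± 0.02 and Wnt7b by 0.12 ± 0.03 (SE) log10 units per 24 h (limma adjusted p = 0.00745 and 0.0308). Tcf7 had a slope of -0.12 ± 0.04 that missed the threshold (adjusted p = 0.0783), and without cell 16 of 216 h it was called as falling. Neither Fzd3 nor Wnt7b was called without the 216 h time point (adjusted p = 0.227 and 0.227) or with the log10 of the mean RPKM. By the rank of time only 1 rising gene was called. Both calls thus rest on that time point and on the scale used. A linear trend cannot find a gene such as Wnt8a that is high at 1 time point only.

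**Figure D4:**
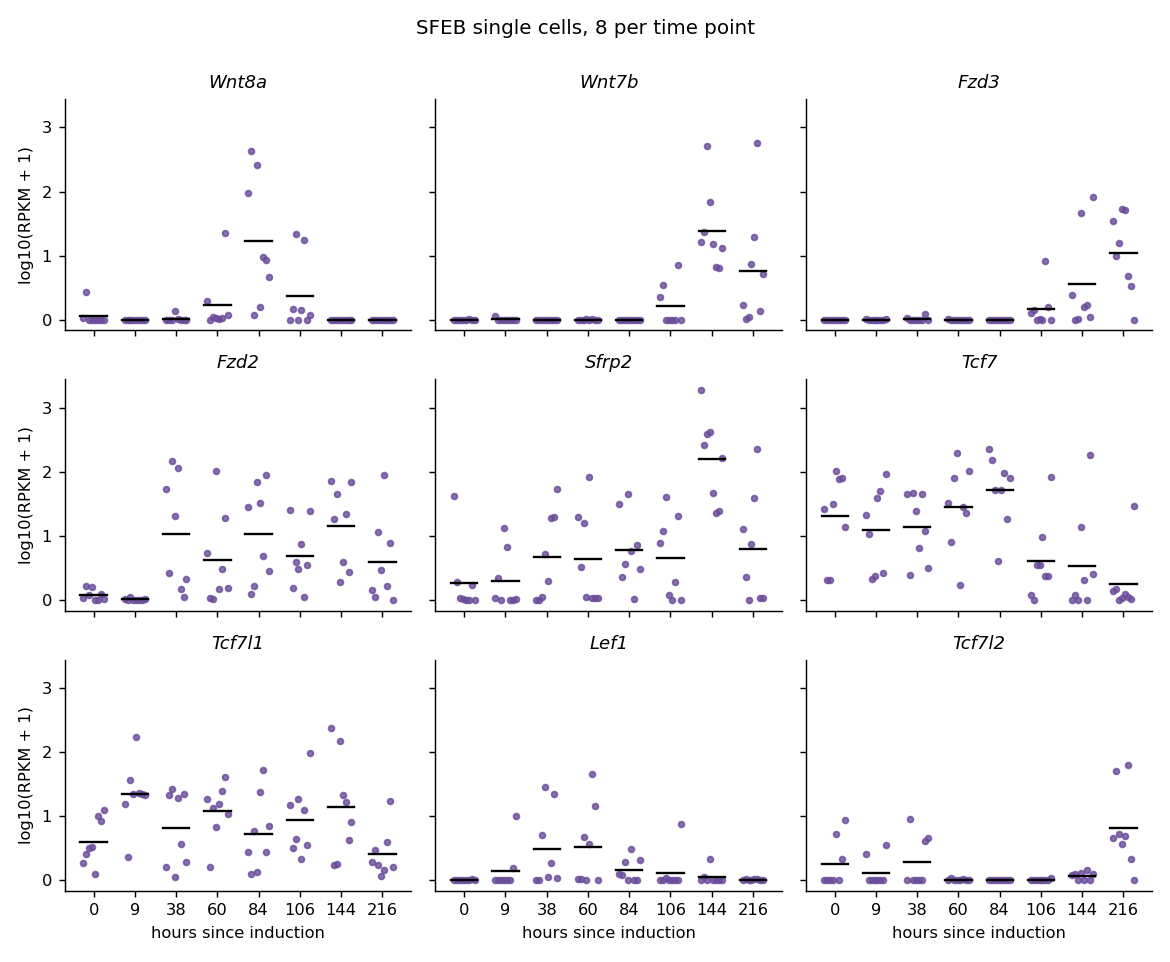
Levels of 9 genes in single cells as log10(RPKM + 1), by hours since induction, with 8 cells (points) and their mean (bar) at each time point. Wnt8a exceeds 0.5 RPKM in most cells at 84 h only, and Wnt7b and Fzd3 exceed it in some cells from 106 h. Tcf7 exceeds it in every cell up to 84 h, and Tcf7l2 in most cells at 216 h only.

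After 4 days of neural induction E14 cells had more Fzd2, Fzd7, Sfrp2, Lef1 and Wnt8a and less Fzd5 and Fzd10 than at day 0, in WT and in KO. Of the 54 genes, 28 reached 1 FPKM in at least 3 of the 12 libraries and were tested. In WT 8 were higher and 3 lower at day 4 (limma, adjusted p under 0.05), where 25.8% of all 12257 genes tested were called, 15.5% higher and 10.3% lower. In KO 8 were higher and 3 lower, where 19.3% of all genes were called, 11.8% higher and 7.56% lower. The libraries of the 2 days did not overlap in 19 of the 28 genes in WT, against 42.2% of all genes, and in 12 of the 28 in KO, against 38.7%. The median log2 change of the genes tested was 0.34 in WT and 0.02 in KO, against 0.08 and 0.05 over all genes. Of the 9 Frizzled genes tested, 4 were higher and 2 lower in WT, and 4 and 2 in KO. Wnt8a was the only ligand tested, and 17 of the 54 genes, 13 of them ligands, stayed below 1 FPKM in every library.

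Fzd7, the receptor with the largest change, measured 7.42, 2.83 and 2.33 FPKM in the WT libraries at day 0 and 68.01, 61.3 and 53.6 at day 4. The KO libraries held 5.82, 3.78 and 19.01 FPKM at day 0 and 51.6, 69.4 and 71.9 at day 4. Every day 4 library exceeded every day 0 library of its genotype, and the log2 change was 3.698 ± 0.46 (SE, n = 3) in WT and 2.898 ± 0.46 in KO (limma adjusted p = 0.000412 and 0.0022). Fzd2 measured 1.89, 2.03 and 2.78 FPKM in the WT libraries at day 0 and 37.6, 14.4 and 19.6 at day 4. KO gave 1.11, 1.59 and 3.39 FPKM at day 0 and 12.9, 13.2 and 24.6 at day 4. The groups again did not overlap, and the change was 2.84 ± 0.37 in WT and 2.57 ± 0.37 in KO (adjusted p = 0.000488 and 0.00118). Fzd5 measured 33.3, 23.7 and 21.3 FPKM in the WT libraries at day 0 and 5.36, 11.4 and 7.696 at day 4. In KO it measured 22.9, 17.1 and 19.6 FPKM at day 0 and 4.15, 8.55 and 6.56 at day 4. It fell in both genotypes, by 1.59 on the log2 scale in WT and by 1.53 in KO (adjusted p = 0.00254 and 0.00431). Fzd7 and Fzd5, whose promoters are printed above, thus moved in opposite directions in another ES line, with replicates.

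Fzd10 measured 17.9, 18.3 and 9.31 FPKM in the WT libraries at day 0 and 5.74, 3.38 and 1.89 at day 4. The KO libraries held 19.8, 17.8 and 3.11 FPKM at day 0 and 0.592, 0.677 and 1.45 at day 4. It fell in both genotypes (log2 change -1.82 ± 0.55 in WT and -2.65 ± 0.55 in KO, limma adjusted p = 0.0301 and 0.00741), but the WT call was lost without WT day 0 replicate 1 or 2 or WT day 4 replicate 2 or 3, with adjusted p up to 0.102. Fzd3 measured 1.22, 0.743 and 0.467 FPKM in the WT libraries at day 0 and 16.9, 2.03 and 2.98 at day 4. KO gave 0.739, 0.331 and 1.16 FPKM at day 0 and 1.99, 1.36 and 2.69 at day 4. The WT change of 1.75 ± 0.53 (adjusted p = 0.0304) was lost without WT day 0 replicate 2 or 3 (adjusted p = 0.0834 and 0.0949), and WT day 4 replicate 1, the library with the most Sox1, was far above the other 2. Without that library the WT change of Fzd3 was 0.96 (adjusted p = 0.0444). In KO the Fzd3 change of 0.79 ± 0.53 missed the threshold (adjusted p = 0.311). Fzd6 was higher at day 4 by 1.11 ± 0.26 in WT and 0.86 ± 0.26 in KO on the log2 scale (adjusted p = 0.00966 and 0.0377), at levels of at most 3.94 FPKM. The KO call of Fzd6 was lost without KO day 0 replicate 1 or 2, KO day 4 replicate 1, 2 or 3 or WT day 0 replicate 2 (adjusted p = 0.0508 to 0.157 with 1 of them left out).

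Sfrp2, the secreted inhibitor, measured 4.04, 1.29 and 1.28 FPKM in the WT libraries at day 0 and 33.1, 26.5 and 31.1 at day 4. In KO it measured 1.88, 0.631 and 2.37 FPKM at day 0 and 15.9, 26.2 and 23.4 at day 4. The change was 3.39 ± 0.34 in WT and 3.16 ± 0.34 in KO (adjusted p = 0.000162 and 0.000324, limma), and no library of day 4 overlapped with day 0. Sfrp1 measured 28.2, 24.5 and 20.3 FPKM in the WT libraries at day 0 and 152, 19.99 and 11.99 at day 4. The KO libraries held 38.8, 37.6 and 9.41 FPKM at day 0 and 1.29, 1.98 and 7.94 at day 4. In WT the day 4 libraries lay on both sides of day 0, and the change of 0.47 ± 0.83 missed the threshold (adjusted p = 0.721), with the Sox1-rich replicate 1 far above the others. In KO Sfrp1 fell by 2.68 on the log2 scale (adjusted p = 0.042). The KO call of Sfrp1 was lost without KO day 0 replicate 1 or 2, KO day 4 replicate 1 or 2 or WT day 0 replicate 1, 2 or 3 (adjusted p = 0.0522 to 0.144 with 1 of them left out). Lgr4, the R-spondin receptor, measured 5.13, 2.996 and 6.61 FPKM in the WT libraries at day 0 and 31.7, 14.5 and 21.3 at day 4. KO gave 6.67, 4.34 and 16.1 FPKM at day 0 and 14.8, 17.1 and 17.1 at day 4. It was higher at day 4 in WT (1.97 ± 0.40, adjusted p = 0.00499), while the KO change of 0.96 ± 0.40 missed the threshold (adjusted p = 0.109) with KO day 0 replicate 3 at the day 4 level. Lgr4 was called in KO too without both libraries that stood apart. That choice was made after seeing the data and drops KO day 0 replicate 3. Sfrp5 missed the threshold in WT (adjusted p = 0.0819) and passed it with the replicate number as a block or without those 2 libraries. At WT day 4 it measured 0.287, 1.86 and 2.91 FPKM, beside endoderm marker sums of 3.17, 22.7 and 32.7 FPKM in the same libraries, and the part of such cells was not tested.

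Lef1 measured 0.782, 1.01 and 0.176 FPKM in the WT libraries at day 0 and 5.604, 5.98 and 13.2 at day 4. In KO it measured 4.55, 3.07 and 1.89 FPKM at day 0 and 18.3, 9.02 and 14.5 at day 4. It was higher at day 4 by 2.42 ± 0.36 in WT and 1.84 ± 0.36 in KO on the log2 scale (limma adjusted p = 0.00118 and 0.00586), with no overlap of days in either genotype. Tcf7, Tcf7l1 and Tcf7l2 were not called in either genotype, with log2 changes between -0.55 and 0.37. Wnt8a measured 0.0741, 0.0961 and 0 FPKM in the WT libraries at day 0 and 4.68, 1.32 and 0.924 at day 4. The KO libraries held 0, 0.294 and 0 FPKM at day 0 and 4.88, 1.54 and 1.23 at day 4. The change was 1.48 ± 0.42 in WT and 1.56 ± 0.42 in KO (adjusted p = 0.0249 and 0.0246), with the change in WT at 1.00 without WT day 4 replicate 1. The WT call of Wnt8a was lost without WT day 0 replicate 1, 2 or 3 or WT day 4 replicate 1 (adjusted p = 0.0508 to 0.0823 with 1 of them left out). The KO call of Wnt8a was lost without KO day 0 replicate 1 or 2 or KO day 4 replicate 1 (adjusted p = 0.0562 to 0.081 with 1 of them left out). Beyond these, KO day 4 had more Fzd8 and Rspo1 (1.05 ± 0.23 and 1.22 ± 0.36 on the log2 scale, adjusted p = 0.0104 and 0.0342), both at levels of at most 3.87 FPKM. The KO call of Rspo1 was lost without KO day 0 replicate 1 or 2 or KO day 4 replicate 2 or 3 (adjusted p = 0.0895 to 0.136 with 1 of them left out). The KO call of Fzd8 was lost without KO day 0 replicate 2 (adjusted p = 0.0509). Wls, which rose in the time courses, measured 54.9, 8.01 and 11.6 FPKM at day 4 of WT and was not called (adjusted p = 0.128).

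**Figure D5:**
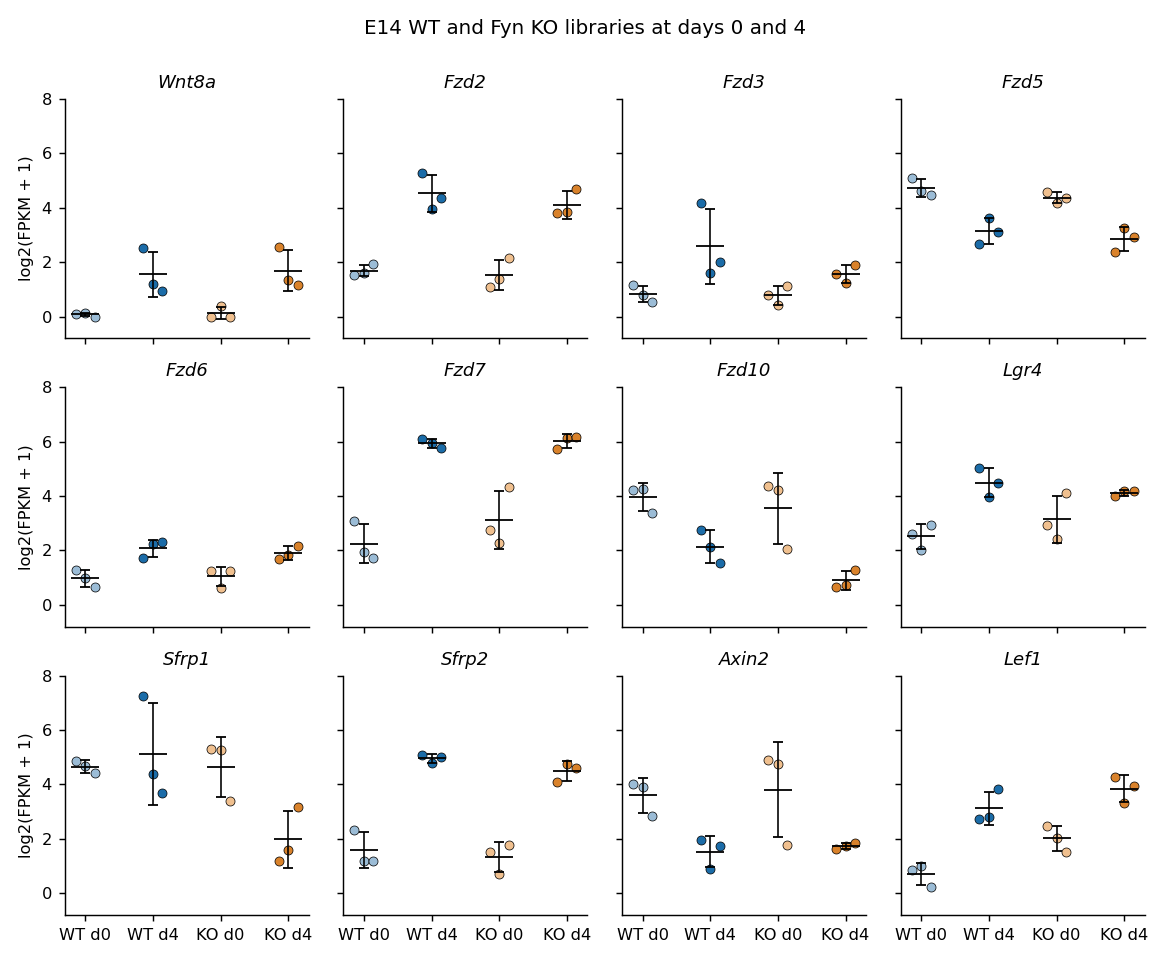
Levels of 12 genes as log2(FPKM + 1) in the 3 libraries (points, replicates 1 to 3 from left to right) of WT and KO at days 0 and 4, with the mean and SD (bar and whiskers). Fzd2, Fzd7, Sfrp2 and Lef1 are higher at day 4 than at day 0 without overlap in both genotypes, Fzd5 and Fzd10 are lower, and Axin2 in KO at day 0 has 1 library at the day 4 level.

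Axin2 and some other targets of beta-catenin were lower at day 4 in WT. Axin2 measured 15.2, 14.1 and 6.17 FPKM in the WT libraries at day 0 and 2.91, 0.84 and 2.32 at day 4. KO gave 28.7, 26.03 and 2.44 FPKM at day 0 and 2.11, 2.36 and 2.58 at day 4. The WT change of -2.07 ± 0.68 passed (limma adjusted p = 0.0421) and the KO change of -2.07 ± 0.68 did not (adjusted p = 0.0514). The WT call of Axin2 was lost without KO day 4 replicate 1, 2 or 3, WT day 0 replicate 1 or 2 or WT day 4 replicate 1, 2 or 3 (adjusted p = 0.0558 to 0.126 with 1 of them left out). KO day 0 replicate 3 was already at the day 4 level. Of 7 further target genes tested, 4 were lower in WT and 3 in KO, and none was higher, beside 10.3% and 7.56% of all genes lower. Over the time courses the same list went both ways, with 3 rising and 2 falling of 7 in SFEB and 3 rising and 2 falling of 6 in adherent culture. Sp5, a transcription factor and direct target, measured 17.3, 23.8 and 4.44 FPKM in the WT libraries at day 0 and 0.357, 0.0244 and 0.131 at day 4. In KO it measured 49.9, 66.8 and 0.255 FPKM at day 0 and 0.111, 0.104 and 0.0439 at day 4. Cdx1, a homeobox target of Wnt in the posterior embryo, measured 34.3, 39.5 and 17.2 FPKM in the WT libraries at day 0 and 0.0633, 0.0601 and 0.194 at day 4. The KO libraries held 76.1, 64.1 and 0.745 FPKM at day 0 and 0.0821, 0.0645 and 0.0272 at day 4. The WT changes were -3.54 ± 1.16 and -4.75 ± 1.07 on the log2 scale (adjusted p = 0.0434 and 0.00875). KO day 0 replicate 3 was low in Axin2, Sp5, Cdx1 and T alike, while its Notum, a secreted Wnt-removing enzyme and target, was at 25.9 FPKM beside 22.2 and 23.5 in the other 2. Without both libraries that stood apart Axin2 fell in KO as well. KO day 0 replicate 3 had been set apart by its low T, a gene on the same target list. That fit therefore keeps only KO day 0 libraries with high Axin2 and gives no separate evidence of a fall. In the R1 SFEB course at 0 h, Axin2 was at 3.55 and 3.46 FPKM and Cdx1 at 0.846 and 0.6996, values normalized apart from those of E14.

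The rest of the pathway was read from lists of genes outside those listed by symbol. Of 21 genes of the cytoplasmic and nuclear core tested in E14, 2 were higher and 0 lower in WT at day 4, where 25.8% of all genes were called. The higher ones included Ctnnb1, which encodes beta-catenin, at 180.4, 168 and 183 FPKM on day 0 and 309, 224 and 266 on day 4 (log2 change 0.57 ± 0.12, limma adjusted p = 0.0073). Of 8 surface and secreted modulators, 3 were higher and 4 lower, and of 12 planar polarity genes and alternative receptors 2 were higher and 1 lower. Nkd1, Notum and Apcdd1 are on both the modulator and the target list, so these counts overlap. With each gene counted once, 7 of 46 tested over these lists and the targets were higher and 7 lower in WT, and 3 and 6 in KO. In KO 0 core genes were higher and 1 lower, 1 modulator was higher and 2 lower, and 2 planar polarity genes or alternative receptors were higher and 1 lower, where 19.3% of all genes were called. Ror1, a receptor that binds Wnt5a, measured at most 0.0467 FPKM in any day 0 library, and 2.92, 1.38 and 2.33 in WT and 1.77, 2.59 and 2.89 in KO at day 4 (log2 change 1.63 ± 0.22 and 1.75 ± 0.22, adjusted p = 0.000733 and 0.000707). In the SFEB course 14 of 23 core genes rose and 0 fell, with a median slope of 0.08 log2 units per 24 h, where 35.1% of all genes rose and 27.1% fell. In the adherent course 13 of 23 rose and 1 fell, where 35.8% of all genes rose and 23.7% fell.

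Between the genotypes no Wnt gene was called. At day 0, 0 of 28 passed (limma; 2 at an unadjusted p under 0.05), where 0.171% of all genes tested did, 0.0408% higher and 0.131% lower in KO, and at day 4 0 of 28 passed (6 at an unadjusted p under 0.05), where 0.0734% did, 0.00816% higher and 0.0653% lower in KO. Whether the day 4 change differed between the genotypes was tested itself, and 0 of 28 passed (1 at an unadjusted p under 0.05), with 0% of all genes called. The largest difference at day 4 was in Sfrp1, whose 3 KO libraries were all below the 3 WT libraries listed above, by 3.14 ± 0.83 (SE) on the log2 scale (adjusted p = 0.163). Without the Sox1-rich WT replicate 1 the Sfrp1 difference was -2.07 ± 0.63 (adjusted p = 0.321). Tcf7l2 measured 6.39, 5.79 and 4.97 FPKM in WT and 1.49, 3.599 and 2.67 in KO at day 4, a difference of -0.94 ± 0.29 (adjusted p = 0.235). At day 0 the genotypes did not overlap in 4 genes that were higher in KO (Tcf7, Lef1, Lrp5 and Znrf3) and in 1 that was lower (Wls), and in 21.4% of all genes. At day 4 they did not overlap in 5 of the 28 genes, all of them lower in KO (Sfrp1, Sfrp2, Tcf7l2, Fzd4 and Fzd10), and in 16.5% of all genes. Of 6 neural progenitor markers, Sox1 and Pax6 also had all KO below all WT libraries at day 4, and the 6 summed to 149 to 259 FPKM in WT and 98.3 to 183 in KO. Most of that sum was Sox2, at 119.7, 174 and 113 FPKM in WT and 87.9, 178 and 127 in KO. Sox2 was already at 119, 122 and 124 FPKM in WT at day 0. Nes measured 5.28, 2.68 and 9.14 FPKM in WT and 8.19, 2.31 and 10.2 in KO at day 4. Sox1 measured 47.2, 7.81 and 11.6 FPKM in WT and 0.99, 1.27 and 7.08 in KO. The part of neural cells in these differences was not tested. The log2 difference at day 4 had an SE of 0.68 for Axin2 and 0.46 for Fzd7. At day 0 the largest difference of the genes tested was in Lef1, at 0.782, 1.01 and 0.176 FPKM in WT and 4.55, 3.07 and 1.89 in KO (1.32 ± 0.36, adjusted p = 0.141). Without both libraries that stood apart, Dkk3 was called at day 0, with 1.32, 1.14 and 1.35 FPKM in WT and 5.498, 4.65 and 0.627 in KO. The last of these values is in the KO library left out, so the call depends on that choice. The 1 gene of the wider pathway called at day 0 was the glypican Gpc3, at 5.01, 1.71 and 5.36 FPKM in WT and 27.8, 26.2 and 57.5 in KO (2.93 ± 0.38, adjusted p = 0.0127).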

How the data were processed

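RNA-seq was taken from R1 mESCs in SFEB culture (22 cell populations, 64 single cells) and adherent monoculture (15 samples) and from E14 mESCs (12 libraries). The authors' methods name Tophat and Cufflinks, and the submitters' processing notes name TopHat2 2.0.8b and Cufflinks 2.1.1, with mm9 for 101 samples and mm10 for the 12 E14 libraries. The E14 and adherent tables were deposited as FPKM. The SFEB population table, treated here as a score, was deposited after the authors had corrected FPKM with ComBat for batches that are not given in the sources used here, and its values below 0 were set to 0. The single-cell table was deposited as log10(RPKM + 1) after quantile normalization by the authors. No file gives read counts, so the depth of each library could not be computed, and tables normalized apart were never tested together. Libraries were prepared with a transposase kit, and cells were picked by hand.

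Samples were grouped by their labels, which do not say by which protocol E14 was induced. FPKM were tested as log2(FPKM + 1) with limma 3.58.1 in R 4.3.3 (trended empirical Bayes, Benjamini-Hochberg over all genes, threshold 0.05). Filters were 1 FPKM in 3 of 12 E14 libraries, and 0.5 FPKM in 8 of 22 SFEB or 6 of 15 adherent samples. Splines had 3 degrees of freedom. A log2(FPKM + 1) change understates the change of low genes. Single cells were averaged per time point. Shares of cells above 0 have exact Clopper-Pearson intervals, and a count of 0 has a limit of 3 counts, both for counting error only. The scripts were tested on simulated data.

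The genes were listed by symbol, and the pathway, the marker lists and the tests were chosen with earlier results of these data known. Described singly were up to 4 genes per role with the highest SFEB level, genes called between genotypes, and genes called in WT with a log2 change of at least 1. Fzd1, Fzd8, Rspo1, Wnt7a, Wnt8b, Dkk2, Sfrp5, Sp5, Cdx1, Notum, Ctnnb1, Ror1 and Gpc3 were named after their values were seen. Same-numbered libraries deviated together in WT between days (r of 0.199, 0.220 and 0.224 across genes) and at day 4 between genotypes (0.136, 0.258 and 0.240), but not in KO between days (0.0239, 0.0899 and 0.00112) or at day 0 between genotypes (0.0628, 0.339 and -0.115). Alternatives were other pseudocounts, filters, scalings, series, time scales and a replicate block, and each library left out.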

Additional observations from a re-analysis of the deposited data

Results flagged for a closer look

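In 5 of the 64 groups of 8 single cells in which at least 4 cells exceeded 0.5 RPKM, the highest cell lay far from the others by Dixon's test on log10 values. The nominal rate of 5% for that test assumes normal values. These groups can hold several values at or near 0, so that rate does not apply here. At 216 h 1 cell held 561 RPKM of Wnt7b while the other 7 held at most 18.9, and 1 cell held 52.1 RPKM of Dkk3 against at most 3.03 in the others. The 216 h cells also included 1 with 16.2 RPKM of Tcf7l1 against at most 2.99. At 144 h 1 cell held 121 RPKM of Porcn against at most 2.72, and at 106 h 1 cell held 106 RPKM of Sfrp4 against at most 3.06.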

How the results depend on the processing

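Of 191 counts of called genes under another setting, 171 stayed within 1.5 times the count reported and 20 did not. In WT the genes lower at day 4 numbered 1 with no filter on low values. In KO quantile normalization gave 5 higher and 5 lower, and leaving out both libraries that stood apart, chosen after seeing the data, gave 5 lower and, between genotypes at day 0, 1 gene. Leaving out each library in turn gave 6 to 10 higher and 1 to 3 lower genes in WT, 4 to 9 higher and 2 to 5 lower in KO, and 0 between genotypes or in the interaction. In WT leaving out day 0 replicate 1 or 2 or day 4 replicate 2 or 3 left 1 lower gene, and in KO leaving out day 0 replicate 1 or 2 left 5 or 4 higher genes and leaving out day 0 replicate 3 gave 5 lower. With the replicate number as a block, 9 genes were higher and 3 lower in WT, 8 higher and 4 lower in KO, and 0 differed between genotypes; Sfrp5 in WT and Axin2 in KO were the calls it added, and KO libraries shared only a number. The falling SFEB genes numbered 5 in the first series alone, 1 in the parallel series alone and 6 without the samples up to 9 h, a setting added after seeing the data that turned Dkk3 to 0.12 and Lgr4 to -0.030 log2 units per 24 h. The falling adherent genes numbered 7 with quantile normalization. The single-cell means gave 0 rising genes with the log10 of mean RPKM, 0 without 216 h and 1 by the rank of time, and 1 falling gene without cell 16. The cause of these differences was not tested. Of 815 values of single genes, 733 kept their call, 80 lost it and 2 reversed. Fzd2, Fzd5, Fzd7, Lef1 and Sfrp2 were called under all 19 E14 settings in both genotypes. No scaling moved the median of all genes by 0.1 log2 units.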
